A study of Homo sapiens with 24 samples.

Results

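The simple epithelial keratins are KRT7, KRT8, KRT80, KRT18, KRT19 and KRT20, and their members here are the peaks of the SWI/SNF subunits BRG1, BRM and SNF5 that give one of these 6 genes as the nearest transcription start site (TSS). The rule took 51 of the 80150 peaks in the 3 lists, namely 30 of 51504 BRG1 peaks, 20 of 22157 BRM peaks and 1 of 6489 SNF5 peaks. The study asked whether SWI/SNF, a complex that moves nucleosomes, stays on chromatin when the long noncoding RNA SCHLAP1 is made. The lists come from the human prostate line RWPE1, derived from benign epithelium, infected with a lentivirus carrying SCHLAP1, selected in 2.5 ug/mL blasticidin, with chromatin cut by MNase. A complex holds either BRG1 or BRM as its motor ATPase, and SNF5 belongs to the core of many, not all, of these complexes. Each has 2 replicate samples but 1 list, without read counts or scores, so no value below has a replicate spread and the depth is unknown. No subunit was profiled in the LACZ control cells, so the lists cannot show an effect of SCHLAP1.

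Keratins build the intermediate filaments of epithelial cells from pairs of 1 type I and 1 type II protein. Simple keratins are known from single-layered and glandular epithelium, where KRT8 pairs with KRT18, while KRT5 and KRT14 mark the basal layer of stratified and glandular epithelium. The type II genes KRT7, KRT8 and KRT80 and the type I gene KRT18 lie on chromosome 12, and the type I genes KRT19 and KRT20 on chromosome 17. In the prostate KRT8 and KRT18 mark luminal cells, KRT19 is common in cells between the basal and luminal state, and KRT20 is best known from the lining of the gut and bladder.

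The RefSeq table of promoter windows (GRCh38.p14, the hg38 assembly), each from 250 bases before to 50 after a start, holds KRT8 and KRT20 of the 6 genes and not KRT7, KRT18, KRT19 or KRT80. Both windows held are shown. With them is that of KRT7-AS, a noncoding antisense gene inside KRT7 whose window was met in part by peaks of both ATPases. The KRT8 window belongs to 1 start inside the gene, at 52926469, and not to the start of its longest RefSeq span at 52949860. Capitals mark the motifs searched on both strands, and no matches of different motifs overlapped. The letters TGANTCA were searched for AP-1, CATTCC for TEAD factors, GGGCGG for the GC box and TATAAA for the TATA box.
KRT8 (chr12:52926420-52926719, minus strand): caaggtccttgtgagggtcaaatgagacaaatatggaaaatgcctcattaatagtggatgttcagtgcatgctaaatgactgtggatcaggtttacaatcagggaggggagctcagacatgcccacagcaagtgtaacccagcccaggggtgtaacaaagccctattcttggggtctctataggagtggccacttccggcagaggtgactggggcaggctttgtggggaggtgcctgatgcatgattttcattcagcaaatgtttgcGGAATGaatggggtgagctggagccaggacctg
KRT20 (chr17:40885193-40885492, minus strand): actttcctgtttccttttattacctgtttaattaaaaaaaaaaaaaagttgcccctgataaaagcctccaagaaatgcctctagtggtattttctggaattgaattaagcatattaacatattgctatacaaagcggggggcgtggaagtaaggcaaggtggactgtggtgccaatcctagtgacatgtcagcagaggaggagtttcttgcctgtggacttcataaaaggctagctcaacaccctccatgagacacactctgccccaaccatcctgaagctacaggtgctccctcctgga
KRT7-AS (chr12:52247399-52247698, minus strand): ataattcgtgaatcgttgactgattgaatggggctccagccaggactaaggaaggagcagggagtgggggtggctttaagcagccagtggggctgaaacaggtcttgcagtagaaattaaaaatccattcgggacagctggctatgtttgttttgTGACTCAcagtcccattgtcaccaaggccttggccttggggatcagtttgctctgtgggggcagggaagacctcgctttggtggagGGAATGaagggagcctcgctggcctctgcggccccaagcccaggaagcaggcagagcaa
The KRT8 window held 1 TEAD match, the KRT7-AS window 1 AP-1 and 1 TEAD match, and the KRT20 window none of the 4. Of all 35116 promoter windows of the table, 7.71% held the AP-1 letters, 14.0% the TEAD letters, 45.0% the GC box and 11.5% the TATA box. KRT8 and KRT20 each had 2 CG dinucleotides and KRT7-AS had 6, against a median of 14 per window. A match describes letters and is no sign of a bound factor.

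All 6 simple keratins were named by BRG1 peaks, 5 by BRM peaks and 1, KRT7, by an SNF5 peak. Of 20037 protein-coding genes 63.5% were named by BRG1, 49.6% by BRM and 19.7% by SNF5, so for SNF5 the count of 1 in 6 stood near the background. KRT8 had 8 BRG1 peaks, KRT7 had 7, KRT80 and KRT19 had 6 each, KRT18 had 2 and KRT20 had 1. In the BRM list KRT7 had 8 peaks, KRT8 had 4, KRT80 and KRT19 had 3 each, KRT18 had 2 and KRT20 had 0. KRT7 was thus the gene with most BRM peaks of the 6, and KRT8 that with most BRG1 peaks. As many BRG1 peaks as KRT8, or more, were given for 3.39% of protein-coding genes, and as many BRM peaks as KRT7 for 0.544% (109 genes). The numbers were not adjusted for gene length or for the distance to neighbouring genes.

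**Figure D1:**
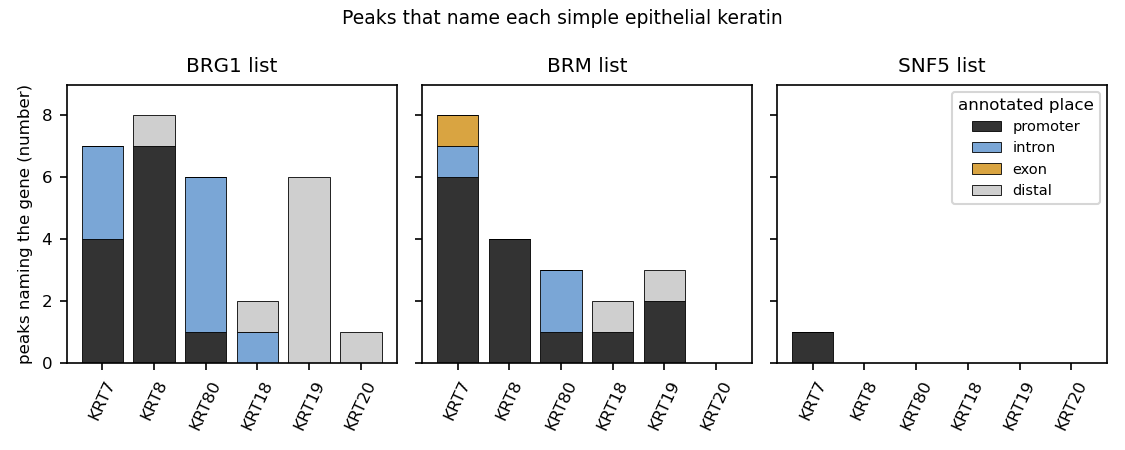
Number of peaks that name each simple keratin (vertical axis) in the BRG1, BRM and SNF5 lists (panels), with bars split by the annotated place of the peak. KRT8 has 7 promoter peaks of BRG1, KRT19 has 6 BRG1 peaks that are all distal, and the only SNF5 peak is at KRT7.

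By place, 12 of the 30 BRG1 peaks were annotated as promoter, within 1000 bp of a TSS (40.0%, 95% exact binomial interval 22.7 to 59.4, against 37.3% of all BRG1 peaks). Introns held 9 and distal sequence 9. Of the 20 BRM peaks 14 were at promoters (70.0%, 45.7 to 88.1, against 62.8% of all BRM peaks). These intervals cover counting error only, and peaks of 1 gene are not independent. The median width was 630 bp for the BRG1 peaks and 435.5 bp for the BRM peaks, against 667 and 547 bp over the whole lists. Width ranged from 347 bp (KRT19) to 4129 bp (KRT7) for BRG1 and from 310 to 2170 bp for BRM.

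**Figure D2:**
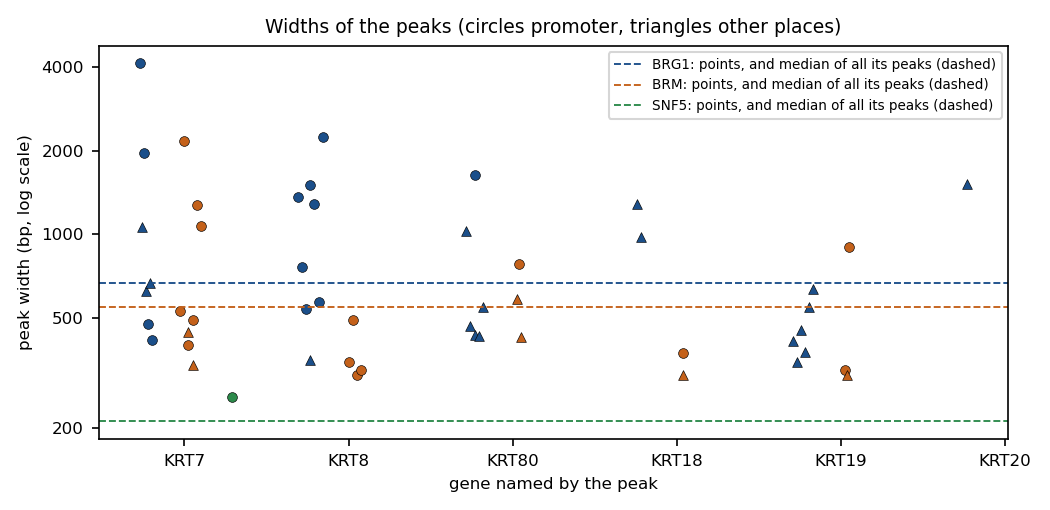
Width in bp (log axis) of each peak by the gene it names, with BRG1, BRM and SNF5 in separate colours, promoter peaks as circles and others as triangles. Dashed lines give the median width of all peaks of each list, and the widest BRG1 and BRM peaks, 4129 and 2170 bp, are those at the KRT7 start.

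KRT7, a type II keratin of ducts and glands, carried the widest peaks of the group and the only site where all 3 subunits met. Its BRG1 peak of 4129 bp (chromosome 12, 52229886 to 52234014, hg38) was wider than 99.7% of the list. It ran from 3357 bp before to 771 bp after the RefSeq start of the gene at 52233243. A BRM peak of 2170 bp (52232642 to 52234811), at the 98.8th percentile of its list, ran from 601 bp before to 1568 bp after this start. The SNF5 peak of 259 bp (52233156 to 52233414), a promoter peak like 81.3% of all SNF5 peaks, lay wholly inside both and covered the RefSeq start, from 87 bp before to 171 bp after it. The list puts it 169 bp from its own nearest TSS, which is outside the peak, so the SNF5 peak covers a start by RefSeq but not by the deposited annotation. The BRG1 peak reached farthest upstream and the BRM peak farthest into the gene. BRM peaks lay under 57.2% of the wide BRG1 peak.

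Within the gene body KRT7 had further promoter peaks, since the deposited annotation holds more than 1 start for it. A BRG1 peak of 1971 bp (52243087 to 52245057) lay from 9844 bp after the RefSeq start on and held a BRM peak of 1278 bp (52243504 to 52244781). Farther in, a BRM peak of 1069 bp (52247904 to 52248972) covered a BRG1 peak of 417 bp. Of the 8 KRT7 BRM peaks 5 met BRG1 and 3 did not, and of the 7 BRG1 peaks 4 met BRM. The 3 BRM peaks without BRG1 were 339, 400 and 491 bp wide, and 2 of them ended 96 and 98 bp short of the next BRG1 peak. Together BRG1 peaks, those naming other genes included, covered 31.7% and BRM peaks 30.8% of the 22611 bp of KRT7. KRT7 had more BRM than BRG1 peaks, as had 6.38% of protein-coding genes.

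Peaks inside KRT7 also named its neighbours, so the count by nearest TSS understates what lay on the gene. KRT7-AS was named by 2 BRG1 peaks, the wider of 425 bp, and by 1 BRM peak of 331 bp. The BRM peak and the second BRG1 peak met the KRT7-AS window printed above over 223 and 138 bp. KRT86, a hair keratin, was named by 1 BRG1, 2 BRM and 2 SNF5 peaks toward the far end of KRT7, the wider SNF5 peak spanning 52250504 to 52250752. Counted over its RefSeq span, KRT7 thus held 3 SNF5 peaks, 1 of which named it.

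KRT80, a type II keratin described in many kinds of epithelium, starts 41.2 kb upstream of the KRT7 start and had 1 promoter site shared by both ATPases, with narrower peaks away from it. Its promoter BRG1 peak of 1635 bp (52191128 to 52192762) covered the RefSeq start at 52192014, at the 89.8th percentile of width. A BRM peak of 782 bp (52191996 to 52192777) overlapped it by 767 bp and lay almost wholly upstream of the start. The other 5 BRG1 peaks were annotated as intron, 430 to 1031 bp wide, and the widest, at 52175417 to 52176447, held a BRM peak of 584 bp. Of these 5, 2 lay beyond the RefSeq span, 5572 bp and more upstream of the start. All 3 BRM peaks of KRT80 met BRG1, and the nearest SNF5 peak lay 16595 bp from the gene.

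**Figure D3:**
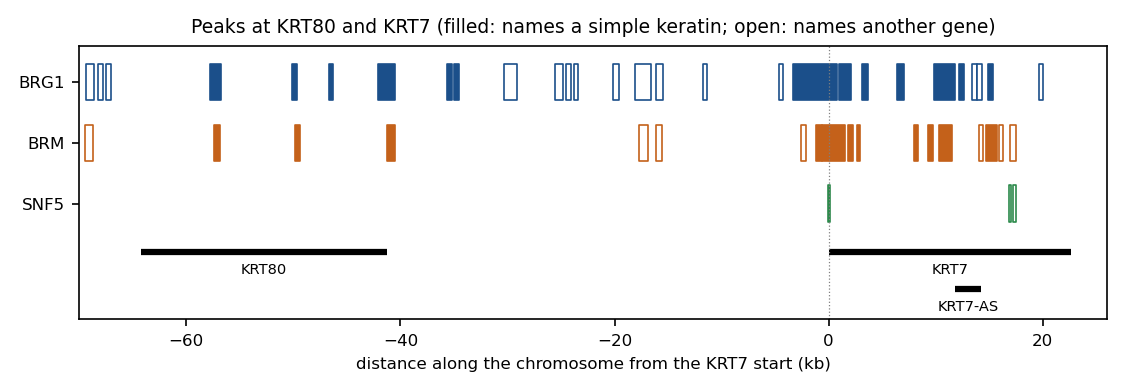
Peaks of the 3 lists (rows) along the stretch from KRT80 to KRT7, by distance in kb from the RefSeq start of KRT7, with black bars for genes. Filled boxes name a simple keratin and open boxes another gene, and the SNF5 peak of 259 bp stands at the RefSeq start of KRT7 inside the BRG1 and BRM peaks.

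KRT8 and KRT18, the partners of the classic simple keratin filament, shared 1 BRG1 site at the starts of their RefSeq spans. The RefSeq starts of KRT18 (52948855) and of the longest KRT8 span (52949860) lie 1005 bp apart, and a single BRG1 peak of 2250 bp (52948740 to 52950989, 96.1st percentile) covered both. The list names it for KRT8, 7 bp from a TSS. The BRM peak inside it, 373 bp wide (52948809 to 52949181), covered the KRT18 start and was named for KRT18. It took up 16.6% of the BRG1 peak. The BRG1 peak over the KRT18 start thus counts for KRT8 alone. KRT18 itself was named by a BRG1 peak of 1287 bp (52945736 to 52947022) that met no BRM, and by a distal BRG1 peak of 978 bp, 20220 bp from the TSS, that held a BRM peak of 310 bp.

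The 7 promoter peaks of KRT8 were spread over 47.7 kb, at different annotated starts. Toward the far end of the longest RefSeq span, 4 BRG1 peaks of 1365, 760, 538 and 1500 bp lay between 52903286 and 52908524. BRM peaks of 346, 491 and 310 bp met the last 3 of these. The list puts the BRG1 peaks of 760 and 538 bp only 37 and 26 bp from a TSS, so annotated KRT8 starts lie here too. In the middle, BRG1 peaks of 1282 bp (52924963 to 52926244) and 569 bp (52927049 to 52927617) stood on either side of the KRT8 window printed above, 863 and 862 bp from the TSS by the lists. The gap between them was 804 bp, and no peak of any list met the window. The nearer BRG1 peak ended 175 bp from the window, and the BRM peak there, 323 bp wide, lay within the wider BRG1 peak.

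The BRM peaks of KRT8 were narrow for their list. The 4 BRM peaks measured 310 to 491 bp, at the 43.7th percentile of the list or below, while 4 of the 8 BRG1 peaks stood at the 81.7th percentile or above. Of those 4 wide peaks 3 met BRM and that of 1365 bp did not, and 2 of the 4 BRM peaks lay at BRG1 peaks of 760 and 538 bp. All 4 BRM peaks met BRG1, and 5 of 8 BRG1 peaks met BRM, 1 of them through the BRM peak named for KRT18. No SNF5 peak lay over KRT8 or KRT18. The stretch without an SNF5 peak around both genes was 555338 bp long, although it held 9 BRG1 and 6 BRM peaks within 50 kb of KRT18.

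KRT19, the smallest keratin and one without a tail domain, was the only member named by both ATPases whose BRG1 and BRM peaks nowhere overlapped. All 6 of its BRG1 peaks were distal, 1589 to 12765 bp from the TSS and 347 to 633 bp wide, and none met BRM. No BRG1 peak lay on the gene (chromosome 17, 41523617 to 41528308), in a free stretch of 6551 bp between 41523141 and 41529693. BRM had a promoter peak of 903 bp there (41527401 to 41528303) that ran from 5 to 907 bp inside the start, and narrower peaks of 325 bp at the far end of the gene and 310 bp upstream. The BRM peaks of 325 and 310 bp lay 766 and 172 bp from the nearest BRG1 peak. BRM peaks covered 26.2% of the gene. By width the peak of 903 bp was the 7th of 1691 BRM peaks that met neither other list. Among the 4955 BRM peaks at least as wide, 10 (0.202%) met no BRG1 peak. The BRG1 peaks on either side carry consecutive numbers in the list (22082 and 22083). How the numbers were given is not stated, so signal left out before the numbering cannot be seen.

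The BRG1 peaks next to KRT19 belonged to KRT15, a basal keratin that lies downstream of it. KRT15 was named by a BRG1 promoter peak of 1715 bp, a BRM peak of 2568 bp (41520644 to 41523211) and an SNF5 peak of 268 bp, each on the downstream side of KRT19. On the other side 6 BRG1 peaks named KRT19. The pattern at KRT19 was thus a BRM site with BRG1 sites on both sides of it, the nearer one 1389 bp away. Of protein-coding genes with 6 or more BRG1 peaks, 1270 in all, 56 (4.41%) had no BRG1 promoter peak, and 22 of these 56 had a BRM promoter peak.

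**Figure D4:**
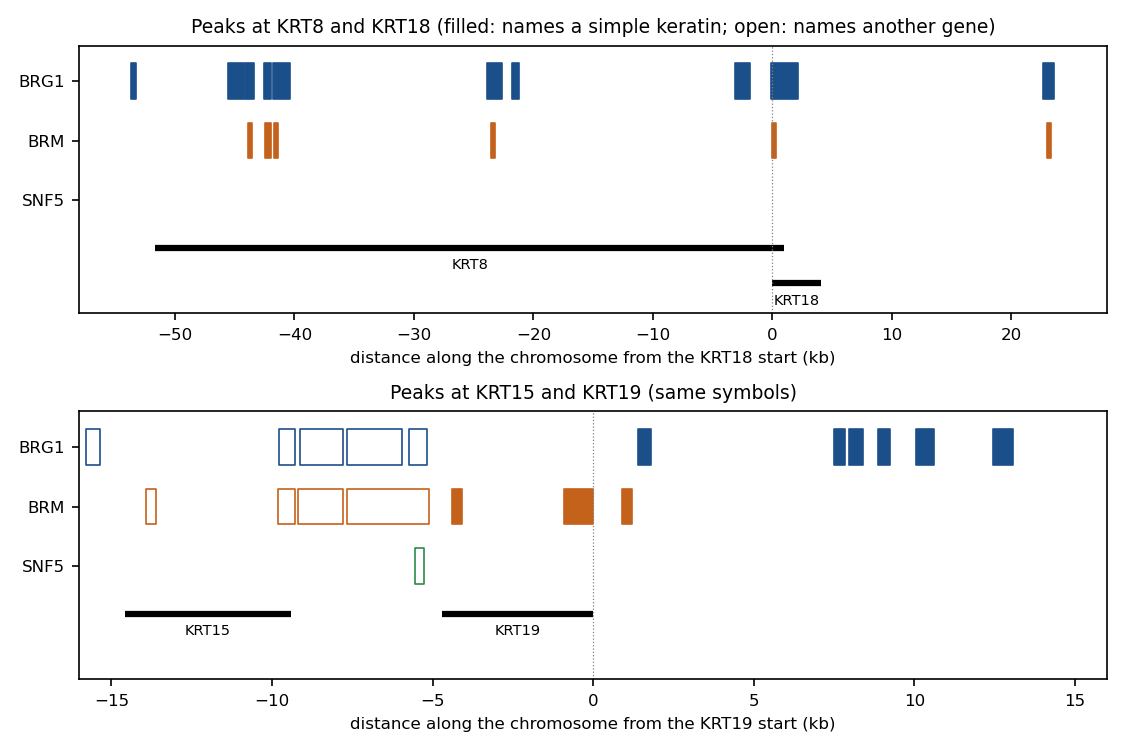
Peaks of the 3 lists (rows) around KRT8 and KRT18 (top, kb from the KRT18 start) and around KRT15 and KRT19 (bottom, kb from the KRT19 start), with black bars for genes; KRT19 reads to the left. A BRG1 peak of 2250 bp spans the starts of both RefSeq spans in the top panel. In the bottom panel no BRG1 peak lies on KRT19 while a BRM peak of 903 bp ends at its start.

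KRT20 had the fewest peaks of the 6. Its only peak was a distal BRG1 peak of 1519 bp (chromosome 17, 40902326 to 40903844), 17856 bp from the TSS, at the 87.6th percentile of width. It met no other list. No peak lay on the gene or on the promoter window printed above, around which BRG1 left 47565 bp and BRM 520420 bp without a peak. A site without a called peak is not shown to lack the protein.

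Over the 6 genes, most BRM peaks met a BRG1 peak, while the BRG1 peaks were divided between those that met BRM and those that did not. No difference from the whole lists was tested. Of the 30 BRG1 peaks 13 met a BRM peak (43.3%, 25.5 to 62.6, against 35.7% of all BRG1 peaks), and without the KRT19 peaks 13 of 24 did (54.2%, 32.8 to 74.5). Leaving out 1 of the other genes gave 36.4% (without KRT8) to 44.8% (without KRT20). Of the 20 BRM peaks 14 met BRG1 (70.0%, 45.7 to 88.1, against 92.2%). The 6 that did not were the 3 at KRT7 and the 3 at KRT19. Without KRT19 the BRM share was 14 of 17 (82.4%, 56.6 to 96.2) and without KRT7 9 of 12 (75.0%, 42.8 to 94.5). Leaving out 1 of the remaining genes gave 62.5% (without KRT8) to 70.0% (without KRT20). With any BRG1 peak within 1 kb counted, 95.0% of the 20 BRM peaks had one, against 95.5% of all BRM peaks, the exception being the KRT19 peak of 903 bp. In the other direction 60.0% of the 30 BRG1 peaks had a BRM peak within 1 kb, against 44.3% of all BRG1 peaks.

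SNF5 met 1 BRG1 peak and 1 BRM peak of these genes, and each whole-list share given here lay within the interval of the small count. It overlapped 1 of the 30 BRG1 peaks (3.33%, 0.0844 to 17.2, against 9.58% of all) and 1 of the 20 BRM peaks (5.00%, 0.127 to 24.9, against 21.9%). Among BRG1 promoter peaks of 1500 bp or more, 51.6% of all 4303 met SNF5, as did 1 of the 5 at simple keratins, the KRT7 start. All 5 met BRM, as did 96.8% of the 4303. The limit of 1500 bp was chosen after the widths were seen, and 1 of 5 has an interval of 0.505 to 71.6%. The single SNF5 peak met both BRG1 and BRM, as did most SNF5 peaks (96.1% met BRG1 and 91.9% BRM).

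The other keratins were set beside the simple keratins as counts, with no test of the difference. Of 23 other type II keratins 11 were named by BRG1, 7 by BRM and 2 by SNF5, and of 25 other type I keratins 11, 6 and 2. In both families each of these shares lay below that of all protein-coding genes, 63.5% for BRG1, 49.6% for BRM and 19.7% for SNF5. The median number of BRG1 peaks per gene was 6 for the simple keratins, 0 for both other families and 1 for all protein-coding genes. These medians make no allowance for differences in gene length, and the ranges of single genes overlapped. KRT14 had 7 BRG1 peaks, KRT78 had 5, and KRT5, KRT6A, KRT15, KRT16 and KRT39 had 4 each. The rest of both families had 3 or fewer. Among the simple keratins KRT18 and KRT20 had 2 and 1, and the others 6 to 8. KRT5, the basal type II keratin, had the widest BRG1 peak of the other type II genes (3479 bp, promoter), with 6 BRM peaks and 1 SNF5 peak. KRT74 (2294 bp) and KRT75 (1503 bp), keratins of the hair follicle, had distal peaks, and KRT6A, a stress keratin, a promoter peak of 1366 bp. KRT3 and KRT4, of cornea and oesophagus, were named by none. Among type I genes KRT15 (1715 bp), KRT16 (1624 bp) and KRT17 (1560 bp) had BRG1 promoter peaks and KRT13 a distal one of 1293 bp, while KRT12 and KRT23 had no peak.

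Genes of proteins that bind or anchor keratin filaments were nearly all named by both ATPases. Of 15 such genes BRG1 named 14 (93.3%), BRM 15 and SNF5 10 (66.7%). Among all protein-coding genes the 3 shares were 63.5%, 49.6% and 19.7%. This comparison took no account of how long the genes are, and the difference was not tested. PKP1, a plakophilin of desmosomes, had an intronic BRG1 peak of 7380 bp, and PLEC, which encodes the linker plectin, one of 6921 bp at a promoter with 19 SNF5 peaks in all. DSP, which encodes desmoplakin, had one of 3690 bp and no SNF5 peak, and PPL, periplakin, one of 3263 bp and 2 SNF5 peaks.

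The lists hold binding sites and no RNA, so the labelled cell type could not be checked by expression. Of basal markers KRT5, KRT14 and TP63 had 4, 7 and 12 BRG1 peaks, 6, 3 and 0 BRM peaks and 1, 0 and 0 SNF5 peaks, and no TP63 peak was annotated as promoter. The luminal marker KLK3 had no peak in any list, in contrast to KRT8 and KRT18, and the blood marker PTPRC and the stromal marker COL1A2 had 1 and 2 BRG1 peaks and none of BRM or SNF5.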

How the data were processed

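The authors precipitated BRG1, BRM and SNF5 from RWPE1 cells fixed in 0.3% formaldehyde, per the labels' protocols. Per the submitters' processing notes, which give no roles, the tools were Bowtie2, SAMtools, MACS2 and deepTools and the build was hg38. Which threshold, filter and pooling of replicates applied is not given in the sources used here. For each peak the deposited lists give start, end, width in bp, place, nearest TSS and distance, per the file headers, and no score.

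Peaks were taken by nearest TSS. Overlap meant at least 1 bp, and shares have exact (Clopper-Pearson) 95% intervals. Gene spans came from RefSeq (GRCh38.p14). Peak names matched RefSeq by symbol or unique synonym in 81.4% (BRG1), 86.9% (BRM) and 90.5% (SNF5) of cases. The strand and start edge of a gene were taken from the edge nearest the deposited distances. With 1 list per subunit no test was made. Overlap routines were tested on simulated intervals. Python 3.11.15, pandas 2.3.3 and scipy 1.17.1 were used.

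Named were all 6 keratins, from each family up to 4 genes with the widest BRG1 peak and 2 without a peak, the 2 genes most alike to each keratin, and neighbours within 50 kb that peaks name. Genes and lists were chosen with earlier results of these data known. The histone and input samples were not used here, and 1 marker fixed for the cell type check is not reported here.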

Additional observations from a re-analysis of the deposited data

How the results depend on the processing

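No paired analysis was possible because each subunit has 1 list that does not separate its replicates, and for the same reason no replicate could be left out. Of 44 recomputed values, 25 stayed within 1.5 times the count or within the interval of the share. With peaks wider than the median of each list, BRG1 peaks fell from 30 to 13, BRM peaks to 6 and BRM-named genes to 3. With the 6489 widest peaks of each list these were 5, 5 and 3. With promoter peaks only, 12 BRG1 peaks named 3 genes. Within 1 kb of the gene span, SNF5 had 4 peaks at 2 genes, KRT7 and, by a peak named for KRT15, KRT19. When at least 50% of both peaks had to overlap, 10.0% of BRG1 peaks met BRM and 15.0% of BRM peaks met BRG1, while the 4 shares that involve SNF5 were 0%. With peaks within 1 kb counted, 95.0% of BRM peaks met BRG1 and 60.0% of BRG1 peaks met BRM. The BRG1 promoter share was 63.3% with promoters as within 3 kb and 61.5% in peaks wider than the median. Whole-list shares under these promoter settings and the 50% overlap are not given here. The whole-list shares given earlier rest on other definitions and are no background for them. Reciprocal overlap fails by construction where a narrow peak lies in a wide one. The lists hold no counts, so what depth limits could not be measured.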

Other observations

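By summed peak width over the 3 lists, as Euclidean distance of log2(1 + bp), the protein-coding genes most like KRT7 were KLF6 (distance 0.26), with 10522 bp of BRG1, 5933 bp of BRM and 246 bp of SNF5 peaks, and MNT (0.30). KRT7 had 9349, 6721 and 259 bp. Those most like KRT8 were MPRIP (0.02) and ELAVL2 (0.07), like KRT80 PCF11 and LGALS3BP (0.02 each), like KRT18 TARBP1 and ZGPAT (0.01 each) and like KRT19 SLC39A1 and LRP8 (0.02 each). ELOVL3 had the same 1519 bp of BRG1 peaks as KRT20, in 2 peaks, and SLC25A37 1518 bp. The likeness rests on 3 values per gene and takes no account of place: SLC39A1 had 1 BRG1 peak where KRT19 had 6.

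KRT8 and KRT18 have many processed copies in the genome, 52 and 68 by RefSeq symbol. Peaks named for the copies were looked at after the lists were seen. Copies of KRT8, KRT18 and KRT19 were named by 68 peaks of the 3 lists, of which 0 were annotated as promoter. Over the whole lists the promoter share was 37.3% for BRG1, 62.8% for BRM and 81.3% for SNF5, and the difference was not tested. BRG1 named 8 of the 52 KRT8 copies by 17 peaks and 16 of the 68 KRT18 copies by 36 peaks. The nearest peak to a copy lay 1202 bp from its start (KRT8P12, an exon peak of 670 bp) and the median distance was 20696 bp. KRT18P3 on chromosome 20 had 6 BRG1 peaks, the widest of 1926 bp.

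Around KRT80 the lists gave peaks to a gene they call LINC00592, with 8 BRG1, 8 BRM and 7 SNF5 peaks within 50 kb of KRT80. RefSeq places LINC00592 between KRT80 and KRT7, while these peaks lay beyond the far end of KRT80, so the name and the RefSeq place differ. The widest BRG1 peak there spanned 4354 bp (chromosome 12, 52146325 to 52150678), more than the widest at KRT7. The stretch between KRT80 and KRT7 held 7 BRG1 peaks named for C12orf80 and 2 for METTL7AP1, and no SNF5 peak before the KRT7 start. Beyond the far end of KRT8, 5 BRG1 and 4 BRM peaks named RPL7P41, the widest of 2260 bp (52870132 to 52872391) and 1081 bp, all annotated as distal.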
